A study of Mus musculus with 4 samples.

Results

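A group of 10 genes of the feedback and output of cytokine signalling was followed in splenic T cells of mice that carried interleukin-27 (IL-27): 4 genes of the suppressor of cytokine signalling family (Socs1, Socs2, Socs3, Socs5), their relative Cish, the phosphatase gene Ptpn2, and Pim1, Pim2, Bcl3 and Myc, which are known targets of STAT transcription factors. They were picked by gene symbol from a deposited table of 17039 genes. All 10 were in the table, and all 10 passed the filter on low counts with 12887 genes in all. The material came from 4 C57BL/6 mice kept in SPF animal facilities. The 2 mice of the AAV-IL-27 group received a recombinant adeno-associated virus carrying IL-27, and the 2 mice of the AAV-ctrl group received a control virus, so every animal carried a virus. Both were injected into muscle, and T cells were separated from the spleen by magnetic sorting (MACS) a month later. The sources used here do not give the promoter that drives IL-27, the content of the control virus, the age of the animals, or whether the sorting was positive or negative. The series title speaks of CD8+ cells, and every library title begins with CD8. Each group has replicates 1 and 3, 1 library per mouse.

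Cytokines that use Janus kinases (JAKs) act by phosphorylating STAT proteins, which enter the nucleus and switch on target genes. IL-27 binds a receptor made of Il27ra and Il6st (gp130), and STAT3 is among the factors it is known to activate. Among the targets are the SOCS genes themselves, whose products block JAKs or receptors and recruit a ubiquitin ligase through their SOCS box, so that the pathway limits its own signal. SOCS1 is best known as a brake on interferon-gamma signalling, SOCS3 binds gp130, and CISH restrains signalling of interleukin-2 and of the T cell receptor.

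Of the 6 genes of this group with a RefSeq promoter sequence used here (Socs1, Socs3, Cish, Pim1, Pim2 and Bcl3), 2 held a motif searched for in the 250 bases before the start site. These were Socs1 and Socs3, which also had the largest fold changes of the 10 genes, and both are shown. Whether a motif goes with a fold change was not tested. The motifs were TTCNNNGAA, the palindrome that STAT dimers recognise, and the core of the element bound by interferon regulatory factors, 2 GAAA blocks with any 2 bases between them, both read on either strand. Both stretches lie on the minus strand of GRCm38.p6 and are written 5′ to 3′, with matches in capitals. The Socs1 stretch is chr16:10785567-10785686 and runs from base -150 to base -31 relative to the start site. The Socs3 stretch is chr11:117969457-117969576 and runs from base -210 to base -91. The RefSeq span of Socs3 reaches beyond this start site, and neither stretch overlaps an annotated exon (GENCODE M21).
Socs1: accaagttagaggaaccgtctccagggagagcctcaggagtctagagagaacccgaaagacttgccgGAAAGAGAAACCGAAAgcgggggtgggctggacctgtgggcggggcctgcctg
Socs3: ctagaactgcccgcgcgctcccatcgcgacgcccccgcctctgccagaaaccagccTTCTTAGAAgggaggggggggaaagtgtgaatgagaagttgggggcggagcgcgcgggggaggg
The Socs1 capitals are 2 overlapping copies of the interferon motif, GAAAGAGAAA from base -83 and GAAACCGAAA from base -77. The Socs3 capitals are 1 copy of the STAT motif, TTCTTAGAA, from base -154. In 32851 RefSeq promoters, windows of the same length held the STAT motif in 7.02% and the interferon motif in 2.98%. A match describes the letters and is no measured binding site. The windows of Cish, Pim1, Pim2 and Bcl3 held neither motif.

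Total expected counts were 15742523 to 16182453 per library, and all results below were fitted with edgeR's quasi-likelihood test over all 12887 genes. Of these genes, 39.0% were called at an adjusted p under 0.05 (Benjamini-Hochberg), 21.3% higher and 17.7% lower in AAV-IL-27. With library size as the only scaling, 44.3% of calls were higher, against 54.6% with the TMM factors used here. Levels are given as FPKM, fragments scaled to transcript length and library size. Cd8a stood at 321 to 408 FPKM and Cd4 at 8.21 to 10.1 FPKM, and the 14 T cell markers in the table were detected in all 4 libraries. The summed level of these 14 markers was 3738 and 3318 FPKM in AAV-IL-27 and 3275 and 3320 FPKM in AAV-ctrl. Markers of other cells were present and moved with the groups. The summed level of 15 neutrophil markers was 1049 and 1718 FPKM in AAV-IL-27 and 38.6 and 27.7 FPKM in AAV-ctrl, with 14 of 15 called higher. For 5 basophil and mast cell markers it was 90.8 and 94.7 against 8.05 and 7.42 FPKM, with all 5 called higher. For 9 B cell markers it was 921 and 1281 against 1995 and 1753 FPKM, with 3 called lower and 6 not passed. The highest of these 9, Cd79a, was at 251 and 370 against 630 and 530 FPKM. In AAV-ctrl it lay above Cd8a, which was at 321 and 335 FPKM. For 8 natural killer cell markers the summed level was 197 and 203 against 257 and 246 FPKM, with 5 called lower, 1 higher and 2 not passed. The sum hides the size of those falls: Ncr1, Klrb1c, Klra8, Klra4 and Klre1 lay between 0.0832-fold (Klra8) and 0.253-fold (Klre1). For 15 cell cycle genes it was 638 and 647 against 274 and 269 FPKM, with all 15 called higher. No marker of these 5 lists was at 0 in all 4 libraries, but the neutrophil genes Prtn3 and Ly6g were each listed at 0 in 1 AAV-ctrl library. Elane, Prtn3, Ctsg and Ly6g had at most 5 expected counts in either AAV-ctrl library. Mpo, Camp, Mmp8 and Prss34, the last of the basophil and mast cell list, had 7, 5, 8 and 6 in AAV-ctrl replicate 3. For these genes the control libraries alone would not have passed the low-count filter, so a call of lower was hardly open to them. The part of these cell types in the results was not tested, and in bulk RNA more cells of a type and more RNA per cell cannot be told apart.

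Socs1, Socs3, Bcl3, Socs2, Pim1 and Pim2 rose, and no member fell. These 6 of 10 stand beside 21.3% of all tested genes called higher. The members and the lists below were chosen with earlier results of these data known, so such shares are no test of the group. The order of the 6 by size ran from Socs1 at 3.85-fold to Pim2 at 1.12-fold. Rises of at least 1.5-fold by the fitted fold were found for 5 of 10, all but Pim2, against 9.29% of all tested genes. The 95% intervals of Pim1 (1.43 to 1.66) and Socs2 (1.33 to 2.24) span that cut. The ratio of mean FPKM was 1.49 for Pim1 and 1.75 for Socs2. Rises of at least 2-fold were found for Socs1, Socs3 and Bcl3, 3 of 10, against 5.25% of all tested genes. Myc, Cish, Ptpn2 and Socs5 did not pass. With AAV-ctrl replicate 1 dropped, which leaves 1 library in that group, Socs2 and Pim2 lost the call. Fewer of all tested genes were called higher in that fit too. The median log2 fold change of the 10 was 0.49, against -0.0053 for all tested genes. In FPKM, 8 members had both AAV-IL-27 libraries above both AAV-ctrl libraries and Socs5 had them below, where 30.7% of tested genes were apart and higher and 72.0% were apart in either direction.

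**Figure D1:**
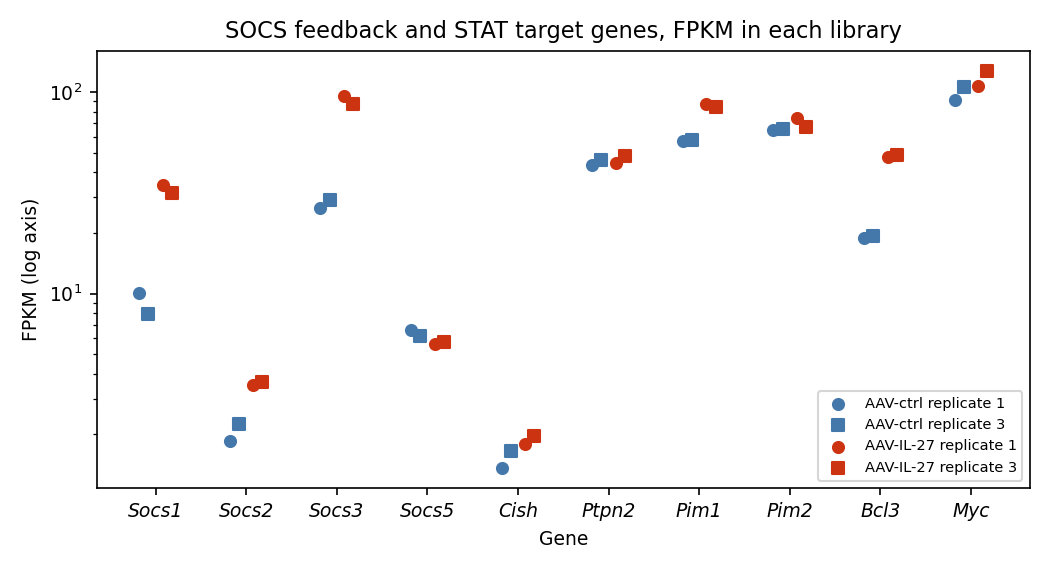
Level of each gene in FPKM (log axis) in the 4 libraries, with AAV-ctrl in blue and AAV-IL-27 in red, circles for replicate 1 and squares for replicate 3. The groups lie far apart for Socs1, Socs3 and Bcl3, close for Pim2 and Myc, and overlap for Ptpn2.

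Among the SOCS genes, Socs1 (NCBI Gene 12703, chromosome 16, 10783808 to 10785536) was listed at 34.8 and 31.4 FPKM in AAV-IL-27 replicates 1 and 3, and at 10.1 and 7.95 FPKM in AAV-ctrl replicates 1 and 3. Both AAV-IL-27 libraries were far above either control, and the groups did not overlap. The fitted fold was 3.85 (95% interval 3.22 to 4.59), a log2 fold change of 1.94 ± 0.11 (SE, edgeR adjusted p = 2.83e-06). It ranked 240 among the log2 fold changes of 12887 tested genes, counted from the highest. The spread inside the control group was wide for this gene, with a 1.26-fold gap between the 2 libraries, less than the gap between groups. Its level moved from percentile 45.0 of the tested genes in AAV-ctrl to percentile 80.3 in AAV-IL-27. Its promoter stretch is the one with the overlapping interferon motifs shown above.

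Socs3 (NCBI Gene 12702, chromosome 11, 117966079 to 117970336) was the most abundant SOCS transcript in every library. It stood at 96.0 and 87.8 FPKM in AAV-IL-27 and at 26.7 and 29.2 FPKM in AAV-ctrl, 91.9 ± 5.78 and 27.9 ± 1.77 FPKM (SD, n = 2 each). The groups did not overlap, and libraries of a group differed by 1.09-fold in either group. The fold was 3.40 (95% interval 3.07 to 3.77, edgeR adjusted p = 2.24e-07). The STAT motif shown above lies in the promoter of this gene. Neutrophils also express Socs3. Between the 2 AAV-IL-27 libraries, replicate 3 had 1.64 times the neutrophil marker sum of replicate 1. The levels of Socs3, Socs1, Pim1 and Bcl3 in replicate 3 were 0.915, 0.903, 0.965 and 1.03 times those of replicate 1. The T cell marker sum was 3318 FPKM in replicate 3 and 3738 FPKM in replicate 1. These are 2 libraries of 1 group, and the part of neutrophils in the level of Socs3 was not tested.

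Socs2 (NCBI Gene 216233, chromosome 10, 95383903 to 95417321), known as a brake on growth hormone signalling, was low throughout. It had 3.53 and 3.62 FPKM in AAV-IL-27, from 132 and 138 expected counts, and 1.85 and 2.24 FPKM in AAV-ctrl, from 73 and 85 expected counts. The groups lay apart, and the fold was 1.73 (95% interval 1.33 to 2.24, edgeR adjusted p = 0.00518). The call depended on a control library: without AAV-ctrl replicate 1 the log2 fold change was 0.68 (adjusted p = 0.0678).

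Socs5 and Cish were the SOCS members that did not pass. Socs5 (NCBI Gene 56468, chromosome 17, 87107278 to 87137647), linked to interleukin-4 signalling, stood at 5.63 and 5.76 FPKM in AAV-IL-27 and 6.56 and 6.14 FPKM in AAV-ctrl. Both AAV-IL-27 libraries were a little below both controls. Its fold was 0.951 with a 95% interval of 0.844 to 1.07 (edgeR adjusted p = 0.497), an interval that leaves out the folds of Socs1, Socs2 and Socs3. Cish (NCBI Gene 12700, chromosome 9, 107296659 to 107302784) had the lowest level of the 10 genes, 1.78 and 1.97 FPKM in AAV-IL-27 and 1.36 and 1.66 FPKM in AAV-ctrl. The groups did not overlap, but the 2 control libraries differed by 1.22-fold and 66.4 to 95.7 expected counts per library lay behind the values. The fold of Cish was 1.27 (95% interval 0.943 to 1.72, edgeR adjusted p = 0.181). The interval includes no change and leaves out a rise of the size of Socs1 or Socs3. Its expected counts are not whole numbers, and 2 genes on the opposite strand overlap its exons by 261 and 479 of 6419 bases (GENCODE M21).

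The make-up of the family shifted accordingly. Summed over the 8 SOCS genes, Cish included, the level was 168 and 157 FPKM in AAV-IL-27 and 74.7 and 76.6 FPKM in AAV-ctrl. Socs3 made up 57.2% and 56.0% of that sum in AAV-IL-27 and 35.7% and 38.1% in AAV-ctrl. Socs1 made up 20.7% and 20.05% against 13.5% and 10.4%. Socs4, the second most abundant in the control libraries, made up 8.04% and 8.67% against 20.1% and 20.5%, while its own level was 13.5 and 13.6 FPKM against 15.0 and 15.7 FPKM and did not pass (edgeR adjusted p = 0.19). Socs6 and Socs7 did not pass either (adjusted p = 0.158 and 0.406). Thus none of the 3 family genes outside the group of 10 was called, where 39.0% of all tested genes were. The ratio of Socs3 to Cish was 53.9 and 44.6 in AAV-IL-27 and 19.6 and 17.6 in AAV-ctrl. The ratio of Socs3 to Socs1 was 2.76 and 2.80 in AAV-IL-27 and lay on both sides of that in AAV-ctrl, at 2.65 and 3.67.

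**Figure D2:**
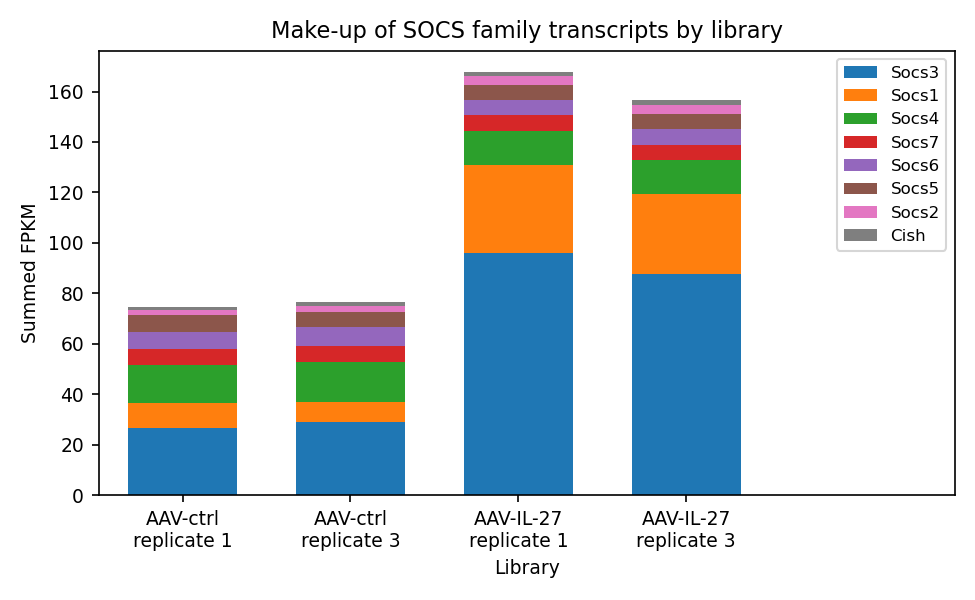
Summed FPKM of the 8 SOCS family genes in each library, stacked by gene. The sum reaches 168 and 157 FPKM in the AAV-IL-27 libraries and 74.7 and 76.6 FPKM in the AAV-ctrl libraries, and Socs3 and Socs1 carry the added height.

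Ptpn2 (NCBI Gene 19255, chromosome 18, 67665501 to 67724632) encodes the phosphatase TC-PTP, which removes phosphate from JAK1 and JAK3 and is a known brake on T cell responses. It had 44.4 and 48.4 FPKM in AAV-IL-27 and 43.6 and 46.3 FPKM in AAV-ctrl. The groups overlapped, since AAV-ctrl replicate 3 lay above AAV-IL-27 replicate 1. The fold was 1.08 (95% interval 0.992 to 1.17, edgeR adjusted p = 0.137), and its direction turned when libraries were scaled to T cell markers (log2 fold change -0.014). With at least 1231 expected counts per library, the interval leaves out a change of 1.5-fold.

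The PIM genes encode kinases that promote growth and survival downstream of STATs. Pim1 (NCBI Gene 18712, chromosome 17, 29490785 to 29496111) was listed at 87.4 and 84.3 FPKM in AAV-IL-27 and 57.4 and 58.1 FPKM in AAV-ctrl. Libraries of a group differed by 1.04-fold at most, and the groups lay well apart. The fold was 1.54 (95% interval 1.43 to 1.66, edgeR adjusted p = 1.61e-05). An antisense gene overlaps 488 of the 3362 exonic bases of Pim1, and no source used here says whether the counting was stranded. Pim2 (NCBI Gene 18715, chromosome X, 7878306 to 7883432) was at 74.7 and 67.3 FPKM in AAV-IL-27 and 65.02 and 65.8 FPKM in AAV-ctrl. Its lowest AAV-IL-27 library was barely above the controls, and the fold was 1.12 (95% interval 1.03 to 1.23, edgeR adjusted p = 0.0477). This call was lost in 11 of 16 alternative settings, among them leaving out AAV-IL-27 replicate 1 (adjusted p = 0.194), AAV-ctrl replicate 1 (adjusted p = 0.235) or AAV-ctrl replicate 3 (adjusted p = 0.188), scaling to T cell markers (log2 fold change 0.040) and DESeq2 (adjusted p = 0.159). Pim1 was below Pim2 in both control libraries (ratio 0.882 and 0.883) and above it in both AAV-IL-27 libraries (1.17 and 1.254). The third kinase of the family, Pim3, had 8.38 ± 0.82 FPKM in AAV-IL-27 and 10.4 ± 0.0495 FPKM in AAV-ctrl (SD, n = 2), with a log2 fold change of -0.26 ± 0.093 (SE, edgeR adjusted p = 0.051).

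Bcl3 (NCBI Gene 12051, chromosome 7, 19808462 to 19822824) encodes an atypical inhibitor of the NF-kappa-B family that works in the nucleus with the subunits p50 and p52. It was listed at 47.6 and 49.0 FPKM in AAV-IL-27 and at 18.9 and 19.3 FPKM in AAV-ctrl, with libraries of a group within 1.03-fold. The groups were far apart, and the fold was 2.62 (95% interval 2.38 to 2.88, edgeR adjusted p = 4.16e-07). Its level moved from percentile 66.4 of the tested genes to percentile 87.1. An antisense gene overlaps 161 of its 2475 exonic bases. None of the 5 NF-kappa-B subunit genes was called higher, where 21.3% of all tested genes were. Nfkb1 and Nfkb2, which encode p50 and p52, had log2 fold changes of 0.053 ± 0.048 (edgeR adjusted p = 0.413) and -0.16 ± 0.056 (adjusted p = 0.0484), and Rel had -0.28 ± 0.073 (adjusted p = 0.0134). Dropping AAV-IL-27 replicate 1 gave adjusted p = 0.185 for Nfkb2 and 0.0618 for Rel, and dropping AAV-ctrl replicate 3 gave 0.175 and 0.129. For Nfkb2, dropping AAV-ctrl replicate 1 gave 0.237. The log2 fold changes of Rela and Relb were -0.032 and -0.011, neither passed, and the sign of each turned when AAV-ctrl replicate 1 was dropped.

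Myc (NCBI Gene 17869, chromosome 15, 61985341 to 61990361), the growth and proliferation factor, was the most abundant of the 10 genes, at 107 and 128 FPKM in AAV-IL-27 and 91.2 and 106 FPKM in AAV-ctrl. AAV-IL-27 replicate 1 was barely above AAV-ctrl replicate 3. Libraries differed by 1.198-fold within AAV-IL-27 and 1.16-fold within AAV-ctrl, about as much as the groups did. The fold was 1.23 (95% interval 1.01 to 1.51, edgeR adjusted p = 0.0962). It passed by DESeq2 (adjusted p = 0.0121), without robust estimation (0.0422) and with AAV-IL-27 replicate 1 dropped (log2 fold change 0.43, adjusted p = 0.00499).

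**Figure D3:**
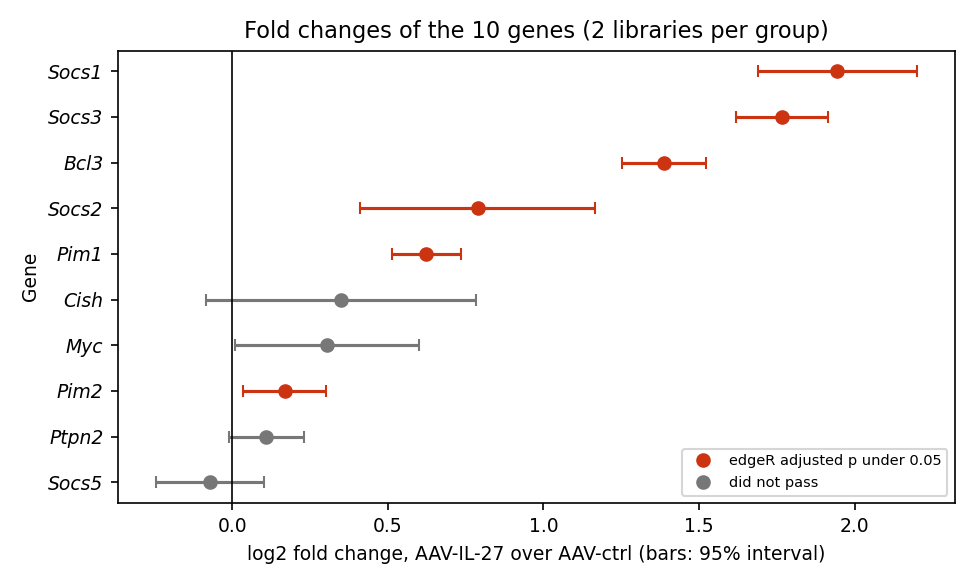
Log2 fold change of each gene, AAV-IL-27 over AAV-ctrl, from edgeR with its 95% interval as a bar, red where the adjusted p is under 0.05. Socs1, Socs3 and Bcl3 lie above 1, and the intervals of Cish, Ptpn2 and Socs5 cross 0.

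The genes around Myc moved in part. Of 28 MYC target genes of ribosome production and growth, 11 rose, 2 fell and 15 did not pass, with a median log2 fold change of 0.10, where 21.3% of all tested genes were higher. Ldha, lactate dehydrogenase, rose 1.73-fold (edgeR adjusted p = 1.98e-06), Odc1, the first enzyme of polyamine synthesis, 1.52-fold (adjusted p = 4.25e-05), and Ybx3, a cold shock domain protein, 1.82-fold (adjusted p = 8.53e-05). Both genes that fell, Polr1b and Rrp9, had log2 fold changes of -0.19 and -0.22 and lost the call when any 1 of the 4 libraries was dropped, with adjusted p between 0.0595 (Polr1b, AAV-IL-27 replicate 1 dropped) and 0.191 (Rrp9, AAV-ctrl replicate 3 dropped). Scaled to T cell markers 6 of the 28 rose, where 1516 of all tested genes were higher, against 2745 with TMM factors. With AAV-ctrl replicate 1 dropped, which leaves 1 library in that group, fewer of the 28 and fewer of all tested genes rose. The part of the cell cycle genes, whose sums are given above, in these counts was not tested. Of 8 genes of the MYC partner network, 4 rose, 1 fell and 3 did not pass, where 21.3% of all tested genes were higher and 17.7% lower. Mxd3 rose 4.45-fold (edgeR adjusted p = 0.00012), from 1.58 ± 0.396 to 6.89 ± 1.27 FPKM (SD, n = 2), and Mxd1 1.71-fold (adjusted p = 8.98e-05). Both encode proteins that compete with MYC for MAX. Max itself (log2 fold change 0.15, adjusted p = 0.0498) and Mxi1 (0.32, adjusted p = 0.0235) both lost the call when AAV-IL-27 replicate 3, AAV-ctrl replicate 1 or AAV-ctrl replicate 3 was dropped, with adjusted p between 0.0816 and 0.239. Mga, a repressor that binds MAX, was at 0.867-fold (adjusted p = 0.0153). Its adjusted p was 0.0581 with AAV-IL-27 replicate 1 dropped and 0.173 with AAV-ctrl replicate 3 dropped. Mnt, Mlx and Mxd4 did not pass.

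Upstream of the members, transcripts of the signalling chain also moved. Stat3, a STAT gene downstream of gp130, rose 1.59-fold (edgeR adjusted p = 8.67e-06), and Stat2, which acts in type I interferon signalling, 1.51-fold (adjusted p = 2.56e-05). Stat5a at 1.14-fold (adjusted p = 0.0232), Stat4 at 0.874-fold (0.0230) and Stat6 at 0.891-fold (0.0199) changed less. In that order, dropping AAV-ctrl replicate 1 gave adjusted p = 0.136, 0.0841 and 0.162, and dropping AAV-ctrl replicate 3 gave 0.143, 0.191 and 0.115. Dropping AAV-IL-27 replicate 1 gave 0.0553 for Stat5a and 0.0923 for Stat4, while Stat5b, not called with all libraries (log2 fold change -0.13, adjusted p = 0.0768), then passed (adjusted p = 0.0331). Of the 4 Janus kinases, Jak3, which serves receptors with the common gamma chain, rose 2.04-fold (adjusted p = 1.98e-06), Jak2 1.24-fold (adjusted p = 0.00595) and Jak1 was lower at 0.820-fold (adjusted p = 0.0023), while Tyk2 did not pass. Dropping AAV-ctrl replicate 1 raised the adjusted p of Jak2 to 0.0821, scaling to T cell markers raised it to 0.219, and dropping AAV-ctrl replicate 3 raised that of Jak1 to 0.0570. Of 7 tested cytokines of a list of 11, Ifng, Il10 and Il21 rose and 4 did not pass. Il10 had 311 and 264 expected counts in AAV-IL-27 and 9 and 16 in AAV-ctrl, and Il21 had 70.3 and 103 against 1.03 and 5. For both, the control libraries alone would not have passed the low-count filter, so a call of lower was hardly open to them. With at least 10 counts required in all 4 libraries, 1 cytokine gene rose. Of 19 receptor chains 8 rose, 6 fell and 5 did not pass, with a median log2 fold change of 0.025. These counts stand beside 21.3% of all tested genes higher and 17.7% lower. Il12rb1 and Il12rb2, which pair to bind interleukin-12, rose 4.88-fold and 4.43-fold (adjusted p = 2.96e-07 and 7.53e-07), and Il15ra, which presents interleukin-15, 2.55-fold (adjusted p = 1.41e-05). Il6st, the gp130 chain that SOCS3 binds, fell to 0.647-fold, Il6ra to 0.569-fold and Il7r to 0.422-fold. Il27ra, the other chain of the IL-27 receptor, was lower at 0.730-fold (edgeR adjusted p = 0.000203).

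Other brakes on the pathway moved less than Socs1 and Socs3. Among 4 phosphatase genes besides Ptpn2, Ptpn1 rose 1.38-fold (edgeR adjusted p = 7.93e-05), Ptpn11 1.26-fold (adjusted p = 0.000764) and Ptprc, the surface phosphatase CD45, 1.21-fold (adjusted p = 0.00133). The calls of Ptpn11 and Ptprc were lost when scaled to T cell markers (adjusted p = 0.153 and 0.281). Ptpn6, which encodes SHP-1, was lower at 0.792-fold (adjusted p = 0.00584), and dropping AAV-ctrl replicate 1 raised its adjusted p to 0.0705. Of the 4 PIAS genes, whose products inhibit activated STATs, Pias1 was lower at 0.866-fold (adjusted p = 0.0102) and 3 did not pass. Dropping AAV-ctrl replicate 1 or 3 raised the adjusted p of Pias1 to 0.0618 or 0.113. Of 5 genes of the ligase that SOCS boxes recruit, Elob, elongin B, rose 1.37-fold (adjusted p = 0.000907), and Eloc, Cul5, Rnf7 and Rbx1 did not pass. Over all tested genes, 21.3% were higher and 17.7% lower.

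Of 20 STAT target genes outside the group of 10, 8 rose, 3 fell and 9 did not pass, with a median log2 fold change of 0.23, where 21.3% of all tested genes were higher and 17.7% lower. The 3 rises with the smallest p were Irf1, an interferon-responsive factor, at a log2 fold change of 1.14, Hif1a, a factor of the response to low oxygen, at 1.67-fold (edgeR adjusted p = 7.30e-06), and Prdm1, which encodes BLIMP1, at 4.12-fold. Lta, lymphotoxin alpha, fell to 0.644-fold (adjusted p = 0.00214). Bcl2 and Bcl6 were lower at log2 fold changes of -0.23 and -0.18 (adjusted p = 0.0364 and 0.0418). Bcl6 lost the call when any 1 of the 4 libraries was dropped (adjusted p of 0.0793 to 0.279). For Bcl2, dropping AAV-IL-27 replicate 1, AAV-ctrl replicate 1 or AAV-ctrl replicate 3 gave adjusted p = 0.128, 0.258 and 0.0637. DESeq2 did not call Nfkb2, Rel, Polr1b, Rrp9, Mxi1, Max, Stat5a, Stat4, Stat6, Pias1 or Bcl6, with adjusted p between 0.0643 for Stat6 and 0.338 for Rrp9. Scaled to T cell markers, Mxi1, Max and Stat5a were not called either (adjusted p = 0.293, 0.882 and 0.734). Of the 113 tested genes in all 12 lists that are not members, 44 rose and 19 fell, again beside 21.3% and 17.7% of all tested genes. With AAV-ctrl replicate 1 dropped 32 rose and 10 fell, while over all genes 1646 rose and 989 fell. With AAV-ctrl replicate 3 dropped 36 rose and 8 fell, while over all genes 1690 rose and 1053 fell.

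**Figure D4:**
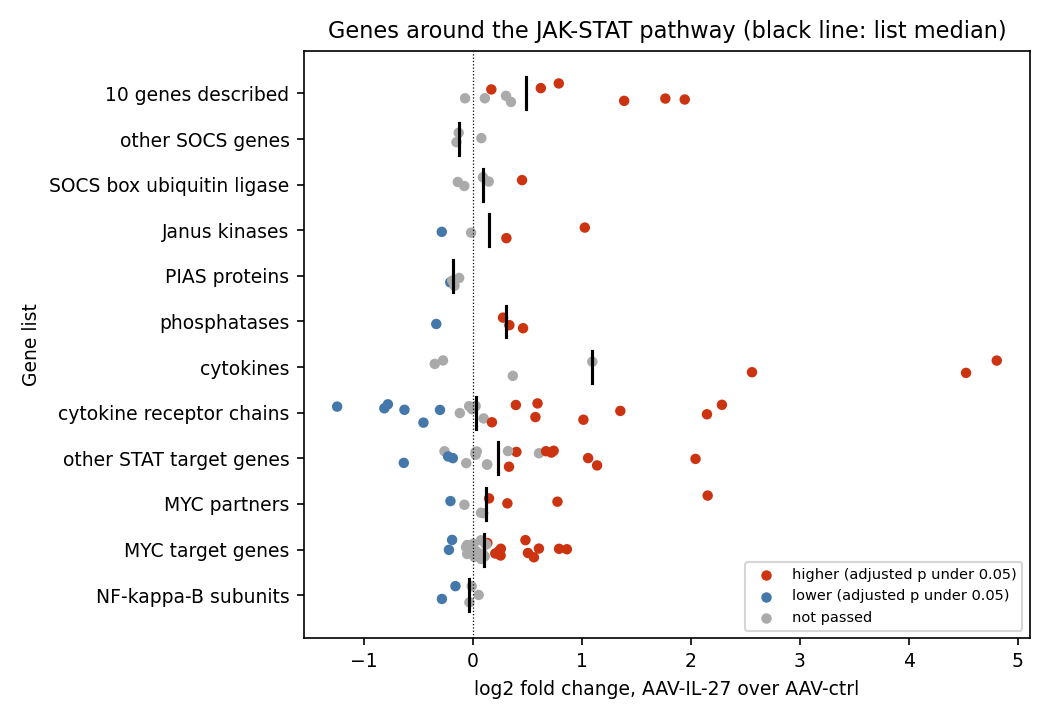
Log2 fold change of every tested gene in the 10 genes described and 11 lists around them, red for higher, blue for lower and grey for not passed, with the list median as a black line. The 10 genes have a median of 0.49, the other STAT target genes 0.23 and the MYC target genes 0.10.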

How the data were processed

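RNA of splenic T cells from 4 mice was sequenced on DNA nanoballs, and the labels name both poly(A) RNA and ribosomal RNA removal. The authors deposited expected counts per gene, of which 64.9% to 65.1% are whole, and a second set of values taken here as FPKM. The file header does not name that unit. It was inferred for 3706 genes, whose ratio of value to count followed the total counts (1.01938 against 1.0193 for AAV-ctrl replicate 1). GRCm38.p6, RSEM 1.2.12, HISAT2 2.0.4, DESeq2 1.4.5 and Bowtie2 2.2.5 appear in the submitters' processing notes, with no role or order. Group averages were not used.

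Counts were rounded, filtered with filterByExpr, scaled with TMM and tested with edgeR 4.0.16 (quasi-likelihood, robust, two-sided, no block) in R 4.3.3. Standard errors (SE) are the log2 fold change over the square root of F, and 95% intervals use the test's degrees of freedom. FPKM describe levels only. DESeq2 1.42.0 and limma 3.58.1 gave alternatives, 16 settings in all. The script was tested on simulated counts. No pair of libraries agreed within sampling noise: chi-square per gene was 6.70 within AAV-IL-27, 2.53 within AAV-ctrl and at least 42.6 between groups.

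The members and lists were chosen with earlier results of these data known. Named genes are all members, all tested genes of lists of up to 8 genes and, in longer lists, up to 3 called genes per direction with the smallest p. Cd8a, Cd4 and Cd79a check the cell label, and Il27ra is given as a chain of the IL-27 receptor, from the edgeR fit only. Other marker genes are named where a low control count or a sum bears on a result. The result of 1 gene under this rule is not reported here. Gene positions and promoters are from RefSeq (GRCm38.p6), and exon overlaps from GENCODE M21. Lists of CD4 T cell, plasma cell, macrophage, dendritic cell, erythroid and platelet markers were also measured. Of their members, 3 of 4, 0 of 5, 5 of 9, 0 of 6, 0 of 5 and 0 of 1 tested genes were lower, and 0, 1, 1, 1, 0 and 1 higher. Of 14 T cell markers 8 were higher and 2 lower. All of these marker counts stand beside 21.3% of all tested genes higher and 17.7% lower.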

Additional observations from a re-analysis of the deposited data

How the results depend on the processing

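Socs1, Socs3, Bcl3 and Pim1 kept their call and direction in all 16 alternatives, with log2 fold changes of 1.78 to 2.12, 1.64 to 1.83, 1.26 to 1.41 and 0.50 to 0.65. The count of members higher was 4 to 7, and 4 to 6 with 1 library left out. No member was called lower under any alternative. Scaling to T cell markers moved the median of all genes from -0.0053 to -0.13 and left 5 members higher. It turned the sign of Ptpn2 (-0.014), Mlx (-0.050), Mxd4 (-0.031), Nfkb1 (-0.072), Socs7 (-0.050) and Rnf7 (-0.035), none of which was called. With 1 library left out, signs turned for uncalled genes: Tyk2 (-0.087 to 0.051), Rela (-0.075 to 0.010), Relb (-0.083 to 0.063), Cd8b1 (-0.11 to 0.083) and Cd4 (-0.18 to 0.11). Over all genes, 2745 were called higher and 2278 lower. Scaled to T cell markers 1516 were higher, and DESeq2 called 1202 lower. With upper-quartile factors 2362 were higher and 2979 lower. With 1 library left out the range was 1646 to 2632 higher and 989 to 2254 lower. Of pathway genes DESeq2 called 11 lower, and with 1 library left out 32 to 42 were higher and 8 to 16 lower. The cause was not tested.

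The replicate numbers are not known to pair animals. The difference between replicates 1 and 3 correlated at -0.0207 between groups over 10599 genes. With the replicate block, which compares samples of the same number, 7 members were higher, with Myc added (adjusted p = 0.00132). Bcl2 (adjusted p = 0.0802), Rrp9 (0.0550) and Nfkb2 (0.0511) lost their calls, and over all genes 2739 were higher and 2232 lower. Expected counts were lowest for Cish (66.4 to 95.7) and Socs2 (73 to 138).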
